A study of Mus musculus with 10 samples.

Results

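The 10 genes followed here encode Polycomb and DNA methylation silencers, and their levels are given across mouse preparations of spleen and femur that the labels call B cells: Ezh1, Ezh2, Suz12, Eed, Bmi1, Cbx7, Ring1, Rnf2, Uhrf1 and Dnmt1. They were taken by symbol from a count table of 46959 genes, all 10 were found, and all 10 passed the filter on low counts in each comparison. The study asked how an inhibitor of histone deacetylases bears on transcription, chiefly at the immunoglobulin heavy chain locus, and whether mice named KOKI in the labels differ from controls.

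Polycomb proteins keep genes silent through histone marks. Polycomb repressive complex 2 (PRC2) methylates histone H3 on the lysine called H3K27: Ezh2 or its relative Ezh1 is the enzyme, and Suz12 and Eed are core partners that the enzyme needs to work. Polycomb repressive complex 1 (PRC1) ubiquitinates histone H2A through the paired RING proteins Ring1 or Rnf2 and a Pcgf protein such as Bmi1, and a Cbx protein such as Cbx7 reads the mark left by PRC2. DNA methylation is a separate layer: Uhrf1 recognises newly copied DNA that carries methyl groups on the old strand, and brings in Dnmt1, which copies them to the new strand. In B cells, Ezh2 is known to be high in dividing germinal centre cells and low in resting ones, where Ezh1 prevails.

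The 10 libraries fall into 6 groups. Splenocytes depleted of CD43+ cells were cultured for 2 days with LPS (lipopolysaccharide, from the bacterial cell wall, which makes B cells divide) at 5 µg/ml in medium with 10% fetal calf serum. These were wild-type cells with LPS alone (WT LPS, n = 2), wild-type cells with LPS and 200 ng/ml of SAHA, the histone deacetylase inhibitor also called vorinostat (WT LPS+SAHA, n = 2), and KOKI cells (n = 2). The titles and the design text give the KOKI cultures LPS, but 1 label field gives them LPS and SAHA, so they are compared with both wild-type groups here. What KOKI stands for is not in the labels. The femoral preparations were not cultured, and each is a pool of 3 mice: 2 control pools from mice deficient for RAG2 and gamma C, 1 KOKI pool in that same background, and 1 KOKI pool deficient for RAG2 alone. All 4 femoral pools thus lack RAG2, which B and T cells need to mature, and 3 of them also lack gamma C, a receptor chain needed by lymphocytes. The labels do not say whether the 2 libraries of a splenic group came from separate animals or cultures, so the p-values measure the spread between these libraries, which may be technical in the wild-type groups. The KOKI LPS pair cannot come from 1 animal, since its replicate 1 had 8 reads of Xist, the RNA of the inactive X in females, and 3610 of the Y-linked Ddx3y, and its replicate 2 had 8499 and 20.

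Library totals ran from 18614742 to 29314068 counts. The 6 mature B cell markers summed to 1973 to 3133 CPM (counts scaled to a common library total) in the splenic libraries but to 9.02 to 10.8 CPM in the femoral ones, which carried 12761 to 20024 CPM of neutrophil markers and 9180 to 12294 CPM of erythroid markers. The femoral samples, labelled as B cells, are therefore called femoral preparations here. A pair of splenic libraries stands apart: WT LPS+SAHA replicate 2 had reads in 451 of 1292 olfactory receptor genes against 15 to 126 in the other splenic libraries, and KOKI LPS replicate 2 was the only library with more than 9 reads of Xist. In bulk samples like these, fewer cells of a type and less RNA per cell cannot be told apart.

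The start sites shown next are those of the 5 genes that passed with SAHA (Ezh2, Suz12, Uhrf1 and Bmi1 lower, Cbx7 higher) and of Dnmt1, the partner of Uhrf1, which had a lower value that did not pass. Each stretch runs from 250 bases before an annotated start to 30 bases after it (RefSeq, GRCm38.p6). Ezh2 lies at chr6:47595001-47595280 on the minus strand, Suz12 at chr11:79992856-79993135 on the plus strand, Bmi1 at chr2:18676768-18677047 on the plus strand, Uhrf1 (its second listed start) at chr17:56304063-56304342 on the plus strand, Dnmt1 (the last of its 3 listed starts) at chr9:20952594-20952873 on the minus strand, and Cbx7 at chr15:79932617-79932896 on the minus strand. All read 5′ to 3′ along the gene, and capitals mark the E2F words TTTCCCGC, TTTCGCGC, TTTGCCGC and TTTGGCGC, searched on both strands. For Uhrf1 and Dnmt1 the start shown is the one that holds such a word. E2F factors are known to switch on genes for DNA replication.
Ezh2: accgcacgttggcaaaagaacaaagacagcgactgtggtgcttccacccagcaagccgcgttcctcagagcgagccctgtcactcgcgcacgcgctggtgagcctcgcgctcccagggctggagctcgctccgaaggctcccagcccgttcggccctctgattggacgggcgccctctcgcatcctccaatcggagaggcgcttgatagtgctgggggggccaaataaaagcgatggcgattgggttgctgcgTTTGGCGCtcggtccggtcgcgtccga
Suz12: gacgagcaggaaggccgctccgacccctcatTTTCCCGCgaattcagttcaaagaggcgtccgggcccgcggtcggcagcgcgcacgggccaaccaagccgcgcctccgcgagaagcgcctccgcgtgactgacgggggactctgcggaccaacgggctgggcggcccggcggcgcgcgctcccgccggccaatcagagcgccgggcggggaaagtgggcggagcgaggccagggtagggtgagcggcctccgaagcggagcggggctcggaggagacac
Bmi1: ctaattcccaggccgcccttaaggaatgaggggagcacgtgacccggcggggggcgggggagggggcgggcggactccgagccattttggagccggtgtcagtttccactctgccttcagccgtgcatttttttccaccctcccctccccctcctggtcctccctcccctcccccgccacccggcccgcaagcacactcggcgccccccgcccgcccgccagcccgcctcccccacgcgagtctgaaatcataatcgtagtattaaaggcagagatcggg
Uhrf1: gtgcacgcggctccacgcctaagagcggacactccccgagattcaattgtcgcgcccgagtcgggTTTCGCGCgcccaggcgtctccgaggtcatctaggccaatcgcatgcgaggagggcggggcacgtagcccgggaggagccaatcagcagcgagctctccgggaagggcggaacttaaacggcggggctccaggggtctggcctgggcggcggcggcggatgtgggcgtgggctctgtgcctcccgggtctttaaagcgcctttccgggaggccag
Dnmt1: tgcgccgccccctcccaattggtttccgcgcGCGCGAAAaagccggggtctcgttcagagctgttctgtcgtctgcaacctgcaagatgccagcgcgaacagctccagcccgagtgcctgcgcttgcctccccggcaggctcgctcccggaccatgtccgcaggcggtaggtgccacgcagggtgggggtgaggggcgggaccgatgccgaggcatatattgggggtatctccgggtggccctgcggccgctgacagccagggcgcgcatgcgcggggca
Cbx7: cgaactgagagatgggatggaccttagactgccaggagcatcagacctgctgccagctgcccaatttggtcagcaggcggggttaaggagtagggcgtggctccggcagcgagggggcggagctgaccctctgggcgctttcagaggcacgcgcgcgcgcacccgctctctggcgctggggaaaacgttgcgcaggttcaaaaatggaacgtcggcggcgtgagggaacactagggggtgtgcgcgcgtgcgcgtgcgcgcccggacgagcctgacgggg

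Over the full 300 bases that were searched (250 before to 50 after the start), an E2F word stood in at least 1 promoter of Ezh2, Suz12, Uhrf1 and Dnmt1, and in none of the promoters of Ezh1, Eed, Bmi1, Cbx7, Ring1 and Rnf2. Of the 4 genes that passed lower with SAHA, then, 3 held the word and Bmi1 did not. The word began 3 bases past the start in Ezh2, 219 bases before it in Suz12 and 185 bases before it in Uhrf1. Dnmt1 had 2 words, 219 bases before and 33 bases after the last listed start, and the second of these lies beyond the stretch shown. Of all 32851 promoters in the table, 744 (2.26%) held such a word. That share is not a matched rate, because each E2F word holds the pair CG. The starts with a word had 31 CG pairs in Ezh2, 41 in Suz12 and 33 in Uhrf1 and in Dnmt1. The median over all promoters was 7. Cbx7 (33) and Ring1 (37) were as rich in CG and held no word. Genes with several listed starts also had more stretches to search. A part of E2F in the result was not tested. The other Uhrf1 start and the other 2 Dnmt1 starts held none, and the files do not show which start was used. The word CCAAT, on either strand, stood in promoters of Ezh2, Suz12, Eed, Cbx7, Uhrf1 and Dnmt1, and in 37.4% of all promoters. TTTGAA or TTCGAA, the short form of the cell cycle homology region, stood in those of Suz12, Eed, Cbx7 and Dnmt1, and in 19.2% of all promoters. A match is only a match of letters in this window.

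Levels between genes are compared in RPKM, which also divides by exon length, and levels of 1 gene between libraries in CPM. In the WT LPS cultures Uhrf1 (56.6 and 58.2 RPKM), Suz12 (56.2 and 56.5 RPKM) and Eed (53.2 and 48.4 RPKM) were the most abundant of the 10. Dnmt1 (28.3 and 40.05 RPKM), Ezh2 (33.0 and 27.7 RPKM), Bmi1 (24.8 and 22.6 RPKM) and Rnf2 (20.02 and 18.6 RPKM) came next, and the libraries of Dnmt1 and Ezh2 overlapped in level. Cbx7 (6.13 and 7.68 RPKM), Ring1 (3.65 and 4.36 RPKM) and Ezh1 (3.26 and 3.86 RPKM) were lowest, and Ring1 and Ezh1 overlapped. In each of the 3 pairs of related proteins or partners, then, 1 member was far above the other: Ezh2 over Ezh1, Rnf2 over Ring1, and Bmi1 over Pcgf2, which it exceeded 29.2-fold to 59.5-fold in the splenic libraries. Pcgf2 was low throughout, with group means from 0.81 CPM in the femoral controls to 2.13 CPM in WT LPS, so its ratios are imprecise.

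The femoral control preparations had another order. Dnmt1 was highest there (67.2 and 46.6 RPKM), next to Uhrf1 (48.3 and 43.4 RPKM), whose libraries it overlapped, and Cbx7 was lowest (1.25 RPKM in both). Between them stood Suz12 (36.0 and 42.6 RPKM), Eed (29.4 and 32.0 RPKM), Ezh2 (20.8 and 22.6 RPKM), Rnf2 (11.8 and 13.1 RPKM), Bmi1 (8.52 and 8.47 RPKM), Ezh1 (3.52 and 4.43 RPKM) and Ring1 (2.85 and 2.45 RPKM). No 2 neighbours among these 7 overlapped. The plot of levels by library shows each gene on its own scale.

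**Figure D1:**
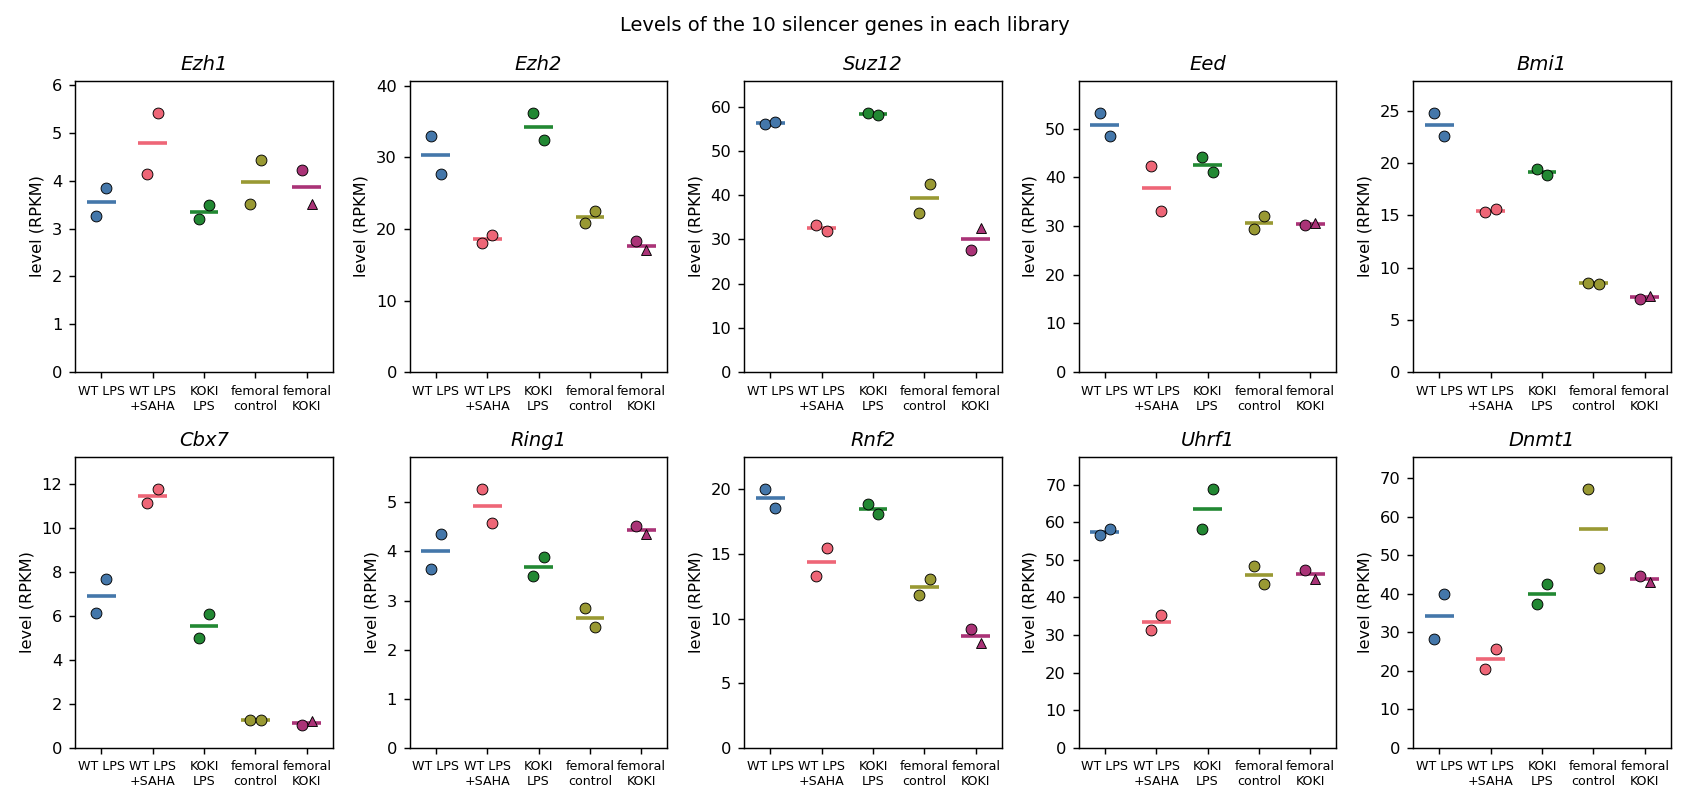
Level of each of the 10 silencer genes in every library, in RPKM on a linear axis from 0, with 2 libraries a group. Points are libraries, lines are group means, and the triangle is the femoral KOKI pool deficient for RAG2 alone. Suz12, Uhrf1 and Ezh2 sit lower and Cbx7 higher in the WT LPS+SAHA libraries than in the WT LPS libraries, and Cbx7 and Bmi1 are far lower in all 4 femoral libraries.

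The first comparison asks what SAHA changed in LPS cultures of wild-type cells. With SAHA, 4 of the 10 silencers were lower (Suz12, Uhrf1, Ezh2 and Bmi1), 1 was higher (Cbx7) and 5 did not pass, in edgeR's quasi-likelihood test with Benjamini-Hochberg adjustment over all genes. Of the 15342 genes tested, 4.64% passed, 146 higher and 566 lower. The median log2 difference was -0.44 over the 10 genes and 0.02 over all genes tested. The genes that were lower thus encode the PRC2 enzyme, a core PRC2 partner, a RING partner in PRC1 and the factor that recruits Dnmt1, and the one that was higher encodes a reader of the Polycomb mark.

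Among the PRC2 genes, Suz12 (chr11:79993106-80034123, plus strand, mm10), the partner that holds the complex together, measured 278 and 279 CPM in the WT LPS libraries and 165 and 157 CPM with SAHA. Its log2 difference was -0.73 ± 0.14 (SE; adjusted p = 0.0340). Ezh2 (chr6:47530139-47595341, minus strand), the enzyme of dividing cells, measured 220.4 and 185 CPM without and 120.2 and 128 CPM with SAHA. These groups did not overlap, and the log2 difference was -0.65 ± 0.15 (SE; adjusted p = 0.0469). Eed (chr7:89954656-89980983, minus strand), which binds the mark that PRC2 lays down, measured 118 and 107 CPM without and 93.9 and 73.5 CPM with SAHA, a log2 difference of -0.37 ± 0.15 (SE; adjusted p = 0.164) that did not pass. Ezh1 (chr11:101191115-101226463, minus strand), the enzyme more used by resting cells, had the opposite sign: 24.3 and 28.7 CPM without and 30.9 and 40.2 CPM with SAHA. Its log2 difference of 0.48 ± 0.18 (SE; adjusted p = 0.139) did not pass either.

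Among the PRC1 genes, Cbx7 (chr15:79915807-79971119, minus strand) measured 39.8 and 49.8 CPM without and 72.3 and 76.5 CPM with SAHA. The groups did not overlap, and the log2 difference was 0.78 ± 0.16 (SE; adjusted p = 0.0412). Bmi1 (chr2:18677018-18686629, plus strand), known for holding down the Cdkn2a locus, measured 98.4 and 89.7 CPM without and 60.8 and 61.9 CPM with SAHA. Its log2 difference was -0.56 ± 0.12 (SE; adjusted p = 0.0421). The 2 RING proteins had opposite signs and neither passed. Rnf2 (chr1:151458004-151500955, minus strand), the main H2A ubiquitin ligase, measured 82.6 and 76.7 CPM without and 54.7 and 63.7 CPM with SAHA, a log2 difference of -0.37 (adjusted p = 0.123). Ring1 (chr17:34020792-34024680, minus strand), its relative, measured 11.8 and 14.1 CPM without and 17.1 and 14.9 CPM with SAHA, a log2 difference of 0.35 (adjusted p = 0.278).

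Of the 2 DNA methylation genes, Uhrf1 (chr17:56303321-56323486, plus strand) measured 241 and 248 CPM without and 133 and 151 CPM with SAHA, a log2 difference of -0.73 ± 0.16 (SE; adjusted p = 0.0431). Dnmt1 (chr9:20907206-20959888, minus strand) measured 178 and 252 CPM without and 129 and 162 CPM with SAHA. The WT LPS libraries lay far apart, and the log2 difference of -0.51 ± 0.21 (SE; adjusted p = 0.173) did not pass. In all 10 genes the SAHA libraries lay on 1 side of the WT LPS libraries, 7 below and 3 above, while the groups did not overlap in 56.4% of all genes tested.

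The 5 calls with SAHA come from a fit of all 6 splenic libraries with no term for the replicate number. All 5 also passed with DESeq2 and with no filter on low counts (the latter with Dnmt1 as well), and all but Ezh2 with DESeq2-type size factors. With the 4 compared libraries alone, with all 10 libraries in the fit, or without any 1 of the 6 splenic libraries, 0 of the 10 passed, except that Cbx7 passed without WT LPS replicate 2. Leaving out WT LPS+SAHA replicate 2, which stood apart, took the calls over all genes from 712 to 0 as well. The sign of each of the 10 differences was kept in all 12 alternatives.

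Of the 55 other silencing genes 8 passed with SAHA (14.5%). Of the 7 other PRC2 genes 1 passed, Jarid2, which helps PRC2 find its targets, higher by 0.57 on the log2 scale. Of the 19 other PRC1 genes, Cbx6 was higher by 0.75 and Yaf2, a partner of the RING proteins in variant complexes, fell by 0.66. Of the 13 other DNA methylation genes 3 were lower: Hells, a remodelling enzyme that DNA methylation depends on, fell by 0.87, the DNA glycosylase Tdg by 0.84 and Mbd3, a subunit of the NuRD deacetylase complex, by 0.75. The de novo methyltransferases Dnmt3a (0.03) and Dnmt3b (0.05) did not pass. Of the 10 H3K9 silencers, the methyltransferases Suv39h1 (-0.72) and Suv39h2 (-1.11) were lower. None of the 6 erasers of Polycomb marks passed, with 1 at an unadjusted p under 0.05. These calls come from the same fit as those of the 10 genes, so the limits just given hold for them too.

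The fall of Suz12, Uhrf1 and Ezh2 had the size of that of the DNA replication genes. Of 20 S phase genes 10 were lower with SAHA and 0 higher, with a median log2 difference of -0.68, and of 10 mitosis genes all 10 were lower, with a median of -1.10. The mitosis genes Cdc20 (-1.36), Ccnb1 (-1.32), Cdk1 (-1.20), Aurka (-1.20) and Bub1 (-1.12) had the largest differences. The mean log2 CPM of the S phase genes was 7.11 and 7.10 in the WT LPS libraries, 6.30 and 6.38 with SAHA, and 7.16 and 7.23 in the KOKI LPS libraries.

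Set against that mean within each library, 3 silencers hardly differed between WT LPS and WT LPS+SAHA. Suz12 stood 1.01 above the S phase mean without and 1.00 above it with SAHA (log2, means of 2 libraries), Uhrf1 0.83 and 0.81, and Ezh2 0.55 and 0.62. The other genes with a negative difference stood higher on this scale with SAHA. Bmi1 stood at -0.55 without and -0.40 with SAHA, Dnmt1 at 0.62 and 0.84, Eed at -0.29 and 0.04, and Rnf2 at -0.79 and -0.45. The 3 genes with a positive difference stood higher on this scale with SAHA: Cbx7 from -1.63 to -0.12, Ezh1 from -2.38 to -1.19 and Ring1 from -3.41 to -2.33. Part of this rise is built into the scale. The S phase mean itself was lower with SAHA, so a gene with unchanged CPM rises on it too. In CPM, Ezh1 and Ring1 did not pass. These are descriptions with no test, and the part of cell division in the result was not tested.

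**Figure D2:**
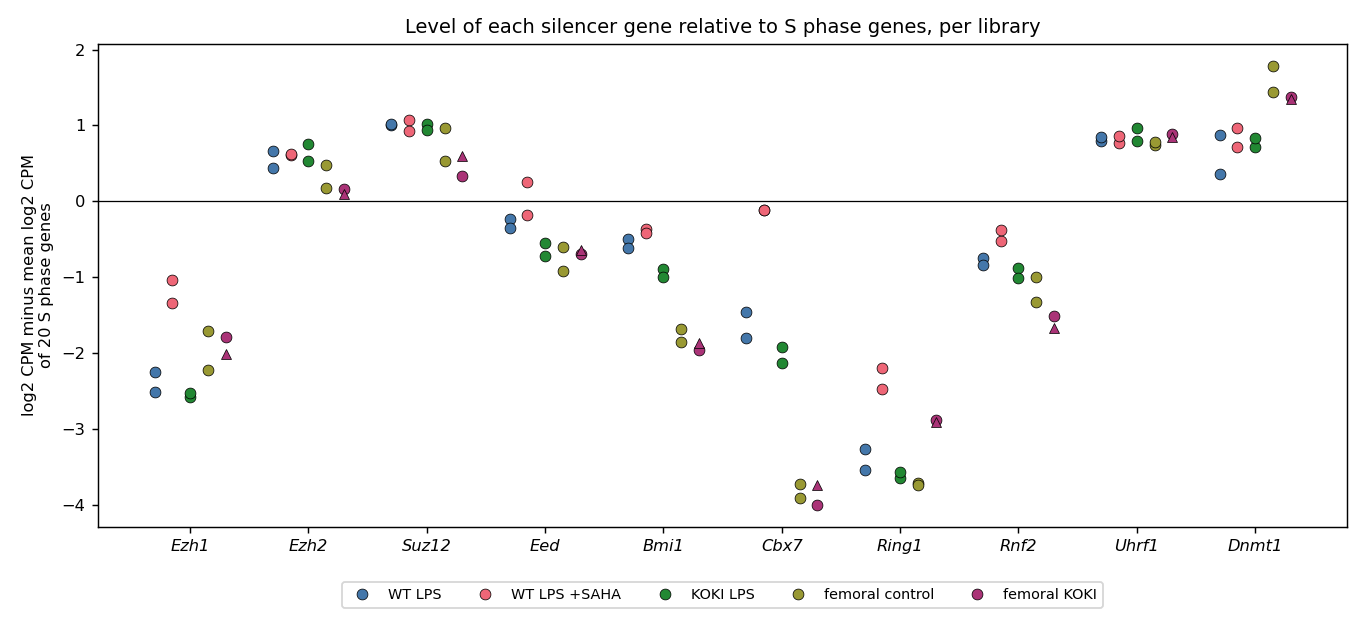
Level of each silencer gene as log2 CPM minus the mean log2 CPM of 20 S phase genes in the same library, 1 point per library and colours by group (the triangle is the femoral KOKI pool deficient for RAG2 alone). Suz12, Uhrf1 and Ezh2 of the WT LPS and WT LPS+SAHA libraries lie together, while Cbx7, Ezh1 and Ring1 of the WT LPS+SAHA libraries lie above those of WT LPS. The S phase mean is lower with SAHA, so a gene with unchanged CPM also lies higher there.

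Sums of cell type markers, scaled to library totals alone, also differed with SAHA. Macrophage and monocyte markers summed to 24.6 and 26.0 CPM without and 43.7 to 51.8 CPM with SAHA, with 1 of the 6 markers tested higher. The T cell sums were 13.3 to 14.5 and 16.9 to 21.9 CPM, with 0 of 7 passing, and the mature B cell sums 2102 to 2150 and 2547 to 3133 CPM, with 2 of 6 higher. Neutrophil markers summed to at most 3.60 CPM in both groups. The part of the cell mix in the result was not tested.

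The KOKI cultures were then compared with WT LPS. None of the 10 silencers passed (edgeR), while 4.08% of the genes tested did, 345 higher and 281 lower, and 1 of the 10, Bmi1, had an unadjusted p under 0.05. The differences of the 10 ran from -0.28 to 0.26 on the log2 scale, with a median of -0.04, and their 95% intervals together spanned -0.66 to 0.74. Suz12 measured 289 and 287 CPM in the KOKI libraries beside 278 and 279 CPM in WT LPS. Bmi1 measured 77.0 and 75.0 CPM, below the 98.4 and 89.7 CPM of WT LPS with no overlap, a log2 difference of -0.27 ± 0.12 (SE; adjusted p = 0.286). Cbx7 measured 32.6 and 39.4 CPM, just under its WT LPS libraries, a log2 difference of -0.28 ± 0.16 (SE; adjusted p = 0.435). Dnmt1 (0.26), Ezh2 (0.21), Uhrf1 (0.18) and Suz12 (0.09) had positive differences, and Eed (-0.22), Ring1 (-0.08), Ezh1 (-0.06) and Rnf2 (-0.03) negative ones. The groups did not overlap in 4 of the 10 (Suz12, Eed, Bmi1 and Cbx7), as in 47.5% of all genes tested. The count stayed at 0 in all 12 alternatives, DESeq2 and the fit without KOKI LPS replicate 2 included.

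Around the 10, Tdg was the only gene of the 55 other silencing genes that passed: it fell by 1.01 (adjusted p = 0.00888), from 71.2 and 61.8 CPM in WT LPS to 34.1 and 30.2 CPM in KOKI LPS. Of the 10 mitosis genes 2 were higher, Mki67 (0.80) and Bub1 (0.55), and 8 did not pass. Of the 20 S phase genes 1 was higher, the replication factor Cdc6 (0.57), and 19 did not pass. These calls lay close to the threshold of 0.05 (edgeR, adjusted p = 0.0462 for Mki67, 0.0453 for Bub1 and 0.0496 for Cdc6). Kdm6a, an X-linked H3K27 demethylase that escapes X inactivation, measured 139 CPM in KOKI LPS replicate 2, the library with reads of Xist, and 76.9 CPM in KOKI LPS replicate 1. Macrophage and monocyte markers summed to 14.6 to 15.9 CPM in the KOKI libraries, below the WT LPS sums given above, with 1 of 6 markers lower, and T cell markers to 10.7 and 10.9 CPM with 0 of 7 passing, and their part was not tested.

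Against WT LPS+SAHA, 5 of the 10 passed in the KOKI cultures, where 23.7% of the genes tested did (2160 higher and 1479 lower). This contrast shares its KOKI libraries with the one above and its SAHA libraries with the first. Uhrf1 (247 and 293 CPM in KOKI LPS), Ezh2 (241 and 216 CPM), Suz12 and Dnmt1 (236 and 268 CPM) were higher, by 0.91 ± 0.16, 0.87 ± 0.15, 0.82 ± 0.14 and 0.77 ± 0.21 on the log2 scale (SE; adjusted p = 0.00633, 0.00606, 0.00579 and 0.0328). Cbx7 was lower, with a log2 difference of -1.07 ± 0.17 (SE; adjusted p = 0.00439). For each of these 5 genes both KOKI libraries lay beyond both WT LPS+SAHA libraries, on the side where the WT LPS libraries lay. The groups did not overlap in 9 of the 10 genes, all but Eed, and in 65.9% of all genes tested. Ezh1 (-0.54, adjusted p = 0.0603), Ring1 (-0.43), Rnf2 (0.35), Bmi1 (0.29) and Eed (0.16) did not pass. Ezh2, Suz12, Uhrf1 and Cbx7 passed in all 12 alternatives and Dnmt1 in 8. Dnmt1 did not pass with all 10 libraries, nor without WT LPS+SAHA replicate 1 or either KOKI LPS library. Its log2 difference ran from 0.63 to 0.95 with 1 library left out.

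Of the other silencing genes 13 of 55 passed (23.6%), a share close to that of all genes tested. By list, 1 of 7 for PRC2 was higher and 2 lower, 2 of 19 for PRC1 were higher and 0 lower, 2 of 13 DNA methylation partners were higher and 2 lower, 2 of 10 H3K9 silencers were higher and 1 lower, and 1 of 6 erasers was lower. They included Suv39h2 (1.13), Hells (1.04), Phf19 (0.79) and Mbd3 (0.78) among the higher, and Phf1 (-1.54), Atf7ip (-1.05) and Jarid2 (-0.87) among the lower. Of the S phase genes 19 of 20 were higher and of the mitosis genes all 10, with Cdc20 (1.75), Mki67 (1.67), Bub1 (1.67) and Aurka (1.57) the farthest from 0. The macrophage and monocyte sums of 14.6 to 15.9 CPM in KOKI LPS lay below the 43.7 to 51.8 CPM of WT LPS+SAHA, with 3 of 6 markers lower. The mature B cell sums (1973 and 2131 CPM beside 2547 and 3133 CPM, 2 of 6 lower) and the T cell sums (10.7 and 10.9 CPM beside 16.9 and 21.9 CPM, 1 of 7 lower) were lower as well, and the part of these cells was not tested.

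Of 20 loci held down by Polycomb in many cells, 16 had too few reads to be tested against WT LPS+SAHA, and 2 of the other 4 passed, Cdkn2a and its neighbour Cdkn2b. Cdkn2a, which encodes the cell cycle brakes p16 and p19Arf, was higher in KOKI LPS by 2.17 ± 0.57 (SE; adjusted p = 0.0296). Cdkn2a measured 3.99 and 5.90 CPM in KOKI LPS, 2.22 and 2.73 CPM in WT LPS and 1.69 and 0.51 CPM in WT LPS+SAHA. Cdkn2b measured 2.67 and 2.33 CPM in KOKI LPS, 1.58 and 1.31 CPM in WT LPS and 0.06 and 0.42 CPM in WT LPS+SAHA, where it had 1 and 9 reads, too few for a measured fold. Neither passed with SAHA in wild-type cells (edgeR, adjusted p = 0.254 and 0.0955). In KOKI LPS against WT LPS neither passed either, with log2 differences of 1.03 and 0.83 (edgeR, adjusted p = 0.375 and 0.588).

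**Figure D3:**
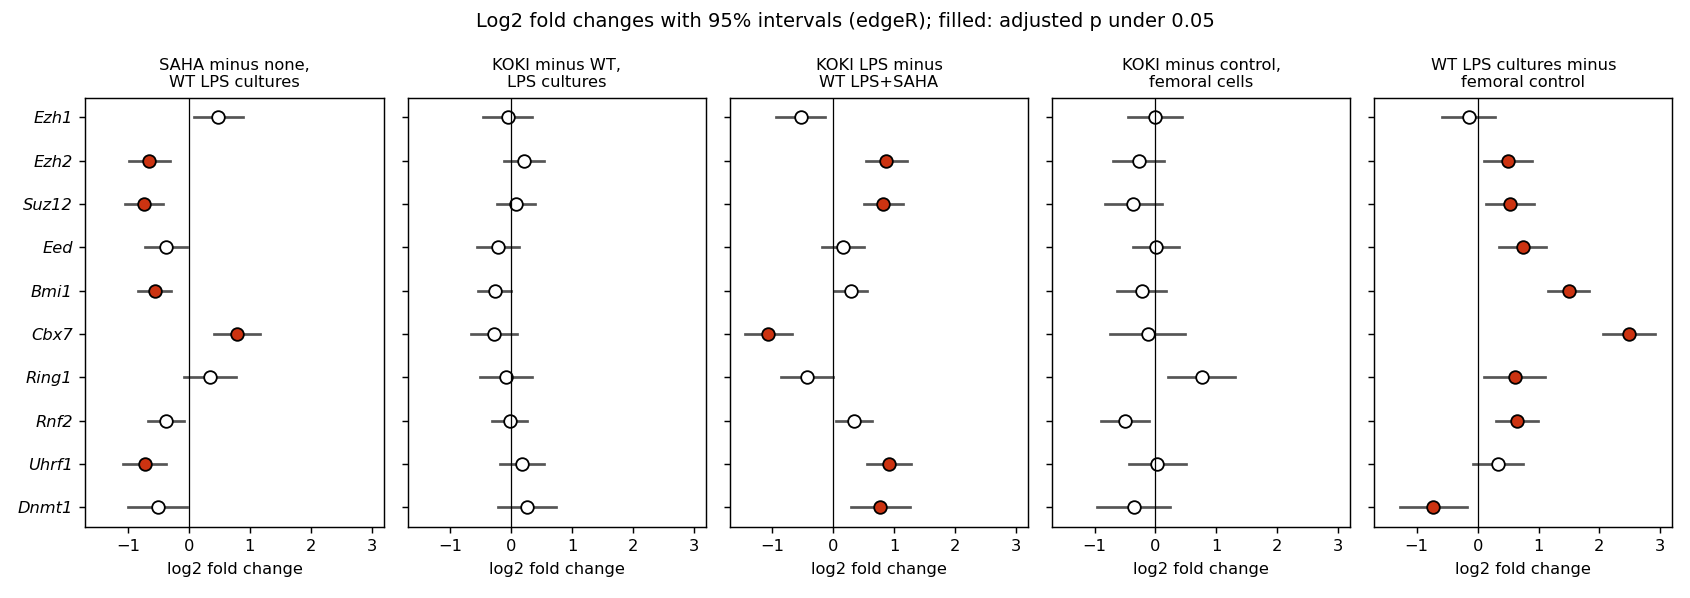
Log2 fold change of each silencer gene (points) with its 95% interval (lines) from edgeR in 5 comparisons of 2 libraries against 2, on 1 scale; filled points passed an adjusted p of 0.05. With SAHA 5 genes are filled, in KOKI against WT LPS and in the femoral KOKI comparison none, and Cbx7 at 2.48 is the farthest from 0 between the WT LPS cultures and the femoral control.

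In the femoral preparations, the 2 KOKI pools were compared with the 2 control pools. None of the 10 silencers passed, where 0.0301% of 16624 genes did (5 higher and 0 lower, with 2687 genes at an unadjusted p under 0.05 and 688 called by DESeq2). The 2 RING genes of PRC1 had the lowest p-values of the 10, both under 0.05 before adjustment, and opposite signs. Control pools held 9.25 and 7.95 CPM of Ring1, the KOKI pool of their background held 14.7 CPM and that deficient for RAG2 alone held 14.1 CPM. The log2 difference was 0.76 ± 0.24 (SE; adjusted p = 0.195). Rnf2 ran the other way, at 48.9 and 53.9 CPM in control pools and 38.1 and 33.4 CPM in KOKI pools, a log2 difference of -0.50 ± 0.17 (SE; adjusted p = 0.228). The groups did not overlap in 7 of the 10 genes, with Ring1 higher and Rnf2, Suz12, Ezh2, Bmi1, Cbx7 and Dnmt1 lower in the KOKI pools, nor in 49.4% of all genes tested. DESeq2 called none of the 10 either.

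The other 8 differences ran from -0.36 for Suz12 and Dnmt1 to 0.03 for Uhrf1. Suz12 measured 178 and 211 CPM in the controls and 136 and 161 CPM in the KOKI pools, and Ezh2 139 and 151 CPM beside 122 and 114 CPM, and neither passed (adjusted p = 0.425 and 0.490). For Dnmt1 control replicate 1 stood at 424 CPM, well above control replicate 2 (294 CPM) and the KOKI pools (282 and 272 CPM). Without control replicate 1, Ring1 and Rnf2 passed, and without control replicate 2, Rnf2 and Dnmt1 passed, while calls over all genes went from 5 to 2114 and 3456. In these fits the control is 1 library, assumed to vary as the 2 KOKI pools do, so the passes are no replicated calls. Bone stroma markers summed to 758 and 1590 CPM in the controls and to 2555 and 2689 CPM in the KOKI pools, and their part was not tested. None of the 55 other silencing genes passed, with 8 at an unadjusted p under 0.05. In the test of the difference between the splenic and the femoral KOKI effects none of the 10 passed either, where 0.846% of 20204 genes did, and Ring1 had the smallest adjusted p (0.274, log2 difference of -0.86 ± 0.32, SE) and was the only 1 of the 10 under 0.05 before adjustment. The mitosis gene Mki67 passed there, with a log2 difference of 1.96 ± 0.40 (SE; adjusted p = 0.0477).

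The last comparison sets the WT LPS cultures beside the femoral control preparations, which differ in tissue, genotype, cell mix and culture at once, and these cannot be told apart. In the cultures 7 of the 10 silencers were higher, 1 was lower and 2 did not pass, where 42.4% of 20204 genes passed (4265 higher and 4303 lower). Cbx7 had the largest difference of the 10: 39.8 and 49.8 CPM in the cultures and 8.08 CPM in both controls, a log2 difference of 2.48 ± 0.19 (SE; adjusted p = 1.06e-06). Bmi1 followed with 98.4 and 89.7 CPM beside 33.8 and 33.6 CPM, a log2 difference of 1.49 ± 0.16 (SE). These 2 PRC1 genes passed in all 14 alternatives.

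Eed (0.74), Rnf2 (0.65), Ring1 (0.61), Suz12 (0.53) and Ezh2 (0.50) were higher by less on the log2 scale, and Dnmt1 was lower, with a log2 difference of -0.73 ± 0.25 (SE; adjusted p = 0.0352). Uhrf1 (0.34) and Ezh1 (-0.14) did not pass. With DESeq2-type size factors the median over all genes moved from -0.02 to -0.17, and Suz12 (0.38), Ezh2 (0.34) and Ring1 (0.45) no longer passed. Of the 14 alternatives Eed and Rnf2 passed in 13 each, but Suz12 in 3, Ezh2 in 2 and Ring1 in 1, so these 3 calls hold for few settings. Without WT LPS replicate 1, Bmi1 and Cbx7 alone passed. Dnmt1 passed in 9 of the 14, and did not pass without femoral control replicate 1, its highest library.

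Around them 29 of the 55 other silencing genes passed (52.7%, beside 42.4% of all genes). Of these, 4 of 7 other PRC2 genes were higher and 1 lower, led by Rbbp7 (1.48), Phf19 (1.35) and Aebp2 (1.30). Of the 19 other PRC1 genes 6 were higher and 4 lower, with Pcgf6 (2.19) at the top and Bcorl1 (-3.38) at the bottom. Of the DNA methylation partners the demethylating enzymes Tet1 (-3.43) and Tet2 (-1.13) were lower, while Tdg (1.29), Hells (1.20) and Mbd3 (1.15) were higher. Of the 20 loci that Polycomb silences in many tissues 12 were tested: 1 was higher in the cultures, 4 were lower and 7 did not pass. The loci named next are those that passed. Several had so few reads in 1 of the groups that no fold is given. Hoxa9, a homeobox gene of early blood cells, measured 9.57 and 7.10 CPM in the controls and 0.17 and 0.00 CPM in the cultures, which is 328 and 234 reads beside 4 and 0. Hoxa7 had 139 and 110 reads in the controls and 1 and 4 in the cultures, and Hoxa5 and Hoxa10, at 0.85 and 1.21 CPM and at 0.50 and 0.58 CPM in the controls, had no read in either WT LPS library. Cdkn2a had 52 and 73 reads in the cultures and 6 and 0 in the controls.

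Ratios between related subunits do not depend on how libraries are scaled. Ezh1 stood at 9.88% and 13.9% of the level of Ezh2 in WT LPS, at 23.1% and 28.3% in WT LPS+SAHA and at 8.83% and 10.8% in KOKI LPS. The SAHA values reached those of the femoral libraries, which were 16.9% and 19.6% in the controls and 23.1% and 20.7% in the KOKI pools. Ring1 stood at 18.2% and 23.5% of Rnf2 in WT LPS, 39.8% and 29.7% in WT LPS+SAHA, and 18.5% and 21.5% in KOKI LPS. In the femoral controls it was 24.1% and 18.8%, and in the KOKI pools 49.0% and 53.8%, the highest of the 10 libraries. Between all splenic and all femoral libraries, a test that pools cultures with and without SAHA, neither ratio passed (exact two-sided permutation p = 0.2 and 0.238, both 0.238 after adjustment over the 4 ratios tested), nor did that of Bmi1 to its PRC1 counterpart Pcgf2 (p = 0.143, 0.238 adjusted, exact permutation test). For Ezh1 to Ezh2 the WT LPS and KOKI LPS libraries (8.83% to 13.9%) all lay below the 4 femoral ones (16.9% to 23.1%), which was not tested apart. The RPKM of Bmi1 was 56.8 and 29.2 times that of Pcgf2 in WT LPS, 41.6 and 59.5 times in WT LPS+SAHA, 47.5 and 31.7 times in KOKI LPS, 64.3 and 25.9 times in the femoral controls and 15.3 and 16.9 times in the femoral KOKI pools, which were the lowest of the 10 libraries. Without the KOKI libraries the difference in Ring1 to Rnf2 turned from -0.45 to 0.33 on the log2 scale. Without femoral control replicate 1 the Bmi1 to Pcgf2 ratio passed, higher in the splenic libraries by 1.19 on the log2 scale (adjusted exact permutation p = 0.0476). The library left out held the highest ratio, 64.3. Every splenic ratio then lay above every remaining femoral one, so the p before adjustment was the smallest that so few libraries allow. Pcgf2 measured 0.81 ± 0.49 CPM (mean and SD) in the femoral controls and 1.57 CPM in the femoral KOKI pools. These ratios and this pass thus rest on few reads of Pcgf2.

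**Figure D4:**
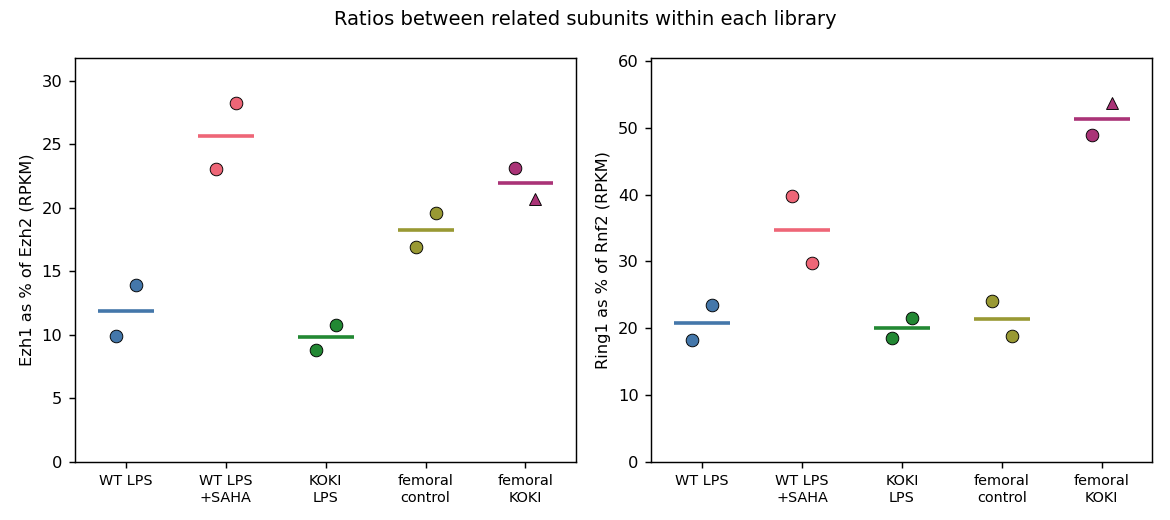
Ezh1 as a percentage of Ezh2 and Ring1 as a percentage of Rnf2, from RPKM, with a linear axis from 0. Points are libraries and lines are means of 2 libraries (the triangle is the femoral KOKI pool deficient for RAG2 alone). The WT LPS+SAHA points lie above those of WT LPS and KOKI LPS in both panels, and the femoral KOKI points are the highest for Ring1 to Rnf2.

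Likeness of pattern was measured as the root mean square difference of centred log2 CPM over the 10 libraries, with 0 for identical patterns. Among the 10 silencers, Ezh2 and Suz12 were the most alike pair (0.12), followed by Ezh2 and Rnf2 (0.23). Over all 20204 genes, Cdc27, a subunit of the anaphase-promoting complex, was nearest to both Suz12 (0.083) and Ezh2 (0.10). The nearest gene to Uhrf1 was Sephs1 (0.071), to Eed Ythdf2 (0.085), to Rnf2 Tprkb (0.092), to Dnmt1 Pgm1 (0.094), to Ezh1 Tmem55b (0.096), to Bmi1 Utp15 (0.10) and to Ring1 Atraid (0.13). Cbx7 had no neighbour that close: the nearest was Ets1, a transcription factor of lymphocytes, at 0.20. This measure grows with the size of a gene's differences, and Cbx7 ran from 6.70 to 76.5 CPM. Its larger distance therefore need not mark an unusual pattern.

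Some exons of the 10 genes overlap those of a gene on the other strand. Eed shares 235 exon bases (10.6% of its own) with Gm26529, and Ezh2, Suz12, Cbx7 and Rnf2 share 1.54% to 3.83% of theirs with another gene. Whether the counting used strand is not given in the sources used here, so reads from these stretches cannot be told apart between partners.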

How the data were processed

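RNA was measured in 10 libraries made from 500 ng of total RNA with a stranded total RNA kit, per the labels' protocols. The deposited table holds raw read counts per gene for all libraries. Per the submitters' processing notes, STAR 2.4.0a and featureCounts of Subread 1.4.6-p1 were used with mm10; how strand and reads with several matches were handled is not given in the sources used. From these counts, edgeR 4.0.16 (R 4.3.3) gave TMM normalisation, the default filterByExpr filter (minimum count 10), quasi-likelihood F tests and Benjamini-Hochberg adjustment over all genes tested, with a threshold of 0.05. The 3 splenic contrasts share 1 fit of 6 libraries, the femoral contrast uses 4, and the others use 10. SE is the log2 difference divided by the square root of F. Printed CPM and RPKM of single genes come from TMM over 10 libraries, so they can differ slightly from a contrast's own scale. Marker sums are CPM of the plain library totals, without TMM. The TMM factors ran from 0.883 (WT LPS replicate 1) to 1.17 (femoral control replicate 1), so these sums are on another scale than the CPM of single genes. RPKM uses the deposited exon lengths. Ratios were tested by exact permutation (SciPy 1.17.1); p-values were adjusted over 4 ratios, of which 1 is not reported here. Promoters come from RefSeq, GRCm38.p6, and all 10 genes matched by symbol. Alternatives were DESeq2 1.42.0, its size factors, no filter, other sets of libraries, a replicate block and leaving out each library.

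All 10 genes are named in each comparison. Of the other lists, the up to 6 called genes with the largest log2 change were named, and further called or uncalled genes were chosen after their values were seen. The 10 genes and the lists were chosen with earlier results of these data known. The scripts were tested on simulated data. Replicate libraries differed by more than sampling noise (chi-square per degree of freedom of 92.6 to 161), so none was counted as a copy. The femoral KOKI pools, which differ in background, gave 44.1.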

Additional observations from a re-analysis of the deposited data

How the results depend on the processing

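For SAHA in wild-type LPS cultures, 712 calls over all genes became 1721 with DESeq2, 1970 with no filter on low counts, 211 with all 10 libraries, 0 with the 4 compared libraries alone, and 0 to 290 with 1 library left out. The 5 silencer calls became 0 with all 10 libraries or with the 4 alone, and 0 or 1 with 1 library left out. With the replicate number as a block (replicate block, 4 libraries), 3413 genes and 9 silencers passed, all but Ring1. The labels give the wild-type cultures shared numbers without saying that a number is an animal. Deviations of same-numbered WT LPS and WT LPS+SAHA libraries correlated at 0.36 across genes, with 2 pairs. Those of the KOKI LPS libraries correlated at 0.080 with WT LPS and 0.092 with WT LPS+SAHA. Whether the wild-type cultures are paired was not tested.

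For KOKI against WT LPS, 626 calls became 1097 with DESeq2, 1254 with no filter, 1313 with the replicate block, and 270 to 708 with 1 library left out; no silencer passed. For KOKI against WT LPS+SAHA, 3639 became 1703 to 3463 with 1 library left out. For femoral KOKI, 5 calls became 0 with DESeq2-type size factors, with all 10 libraries or with the matched background only, 662 with no filter, 688 with DESeq2, and 13 to 3456 with 1 library left out, when 0 to 2 silencers passed. For WT LPS against femoral control, 8 silencer calls became 5 with DESeq2, with its size factors or with no filter, 4 with the 4 compared libraries alone, and 2 to 7 with 1 library left out. The causes were not tested. Where leaving out a library leaves 1 in a group, it is assumed to vary like the other groups.

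With 1 library left out, signs turned only for values near 0: KOKI against WT LPS ran from -0.18 to 0.086 for Ezh1, -0.22 to 0.068 for Ring1 and -0.064 to 0.015 for Rnf2, and femoral KOKI from -0.13 to 0.13 for Ezh1, -0.013 to 0.043 for Eed, -0.073 to 0.15 for Uhrf1 and -0.24 to 0.0072 for Cbx7. With the matched background only, femoral Ezh1 was 0.10 and Eed -0.0085. Ring1 to Rnf2, -0.45 over all libraries, was 0.33 without the KOKI libraries. Bmi1 to Pcgf2, a ratio that rests on few reads of Pcgf2, ran from 0.49 to 1.19 with 1 library left out. It passed at 1.19, without femoral control replicate 1, where the exact permutation p before adjustment was the smallest possible.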
